A study of Mus musculus with 12 samples.

Results

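Negative feedback on the extracellular signal-regulated kinase (ERK) pathway was followed across basophils grown with interleukin-3 (IL-3) or thymic stromal lymphopoietin (TSLP), through the transcripts of 10 genes that the count table lists by symbol. The set holds the phosphatase genes Dusp1, Dusp2, Dusp4, Dusp5, Dusp6 and Dusp10, the sprouty genes Spry1 and Spry2, and the sprouty-related genes Spred1 and Spred2. They are 10 of the 31301 symbols in the table, and all 10 were found. 8 of them had enough counts to be tested, and Dusp4 and Spry1 did not.

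Both cytokines signal through receptors that engage Janus kinases and STAT5, and the IL-3 receptor also feeds the RAS-RAF-MEK-ERK cascade. ERK activity switches on genes whose products turn the pathway down again. DUSP phosphatases remove the activating phosphates from ERK and its relatives p38 and JNK, while sprouty and SPRED proteins act further up, at the level of RAS and RAF. For this reason transcripts such as Dusp6 and Spry2 are widely read as a record of recent ERK activity, although the present data hold no measurement of ERK itself.

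Bone marrow cells of C57BL/6J mice were cultured for 7 days with IL-3 at 0.3 ng/mL or with TSLP, for which the treatment protocol gives 1 µg/mL and another label a different unit. Bone marrow-derived basophils (BMBAs) were then separated by their surface levels into an immature fraction (FcεRIαhi CD49blo) and a mature fraction (FcεRIαlo CD49bhi), and 3 libraries were made per group. The study's sources differ on whether the sorted cells were gated as cKit- or cKit+, and Kit lay between 0 and 1.46 CPM in the 12 libraries. The immature and mature fractions of both cultures make 4 groups, which share the wild-type genotype. The study's legend gives 3 cultures each. The labels give no age, and they do not say whether libraries with the same number come from the same culture, so p values measure the spread between these libraries.

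Library totals ran from 1720065 to 3685285 counts. Levels are in CPM, that is, counts scaled to a common library size after TMM normalisation. The 8 basophil markers of a list that includes Mcpt8 and Prss34 were detected in every group, and their summed level was 39975 to 43222 CPM in immature and 10124 to 12804 CPM in mature cells under IL-3, and 27460 to 30269 CPM in immature and 7443 to 10841 CPM in mature cells under TSLP. That sum does not stand for each marker. Mcpt8, Prss34 and Cpa3 were lower in mature cells under both cytokines, and Fcer1a under IL-3 only. Cd200r3, Gata2 and Itga2 were higher in mature cells under both. Itga2 was at 22.5 to 31.0 CPM in immature and 192 to 309 CPM in mature cells under IL-3. Il3ra overlapped between stages under both. The mast cell list summed to at most 12.1 CPM, and its members Tpsab1 and Mrgprb2 were at 0 in all groups. TSLP mature library 1 stood apart, with 742 CPM for 8 neutrophil markers against 49.9 and 38.8 CPM in the other libraries of its group, and 171 CPM for 7 B cell markers against 20.1 and 21.8 CPM. Ribosomal RNA rows (Rn45s, Rn18s and Rn28s1) took 14.7% to 25.0% of the counts in the IL-3 libraries, 35.0% to 40.1% in TSLP immature and 17.3% to 34.7% in TSLP mature libraries.

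The sequences just upstream of 4 members are shown because these genes carried most of the differences reported here and because each of them was higher in mature cells. Each run holds the 250 bases before the RefSeq transcription start in GRCm38.p6, on the strand of the gene. They lie at chr17:26508473-26508722 on the minus strand for Dusp1, chr19:53528895-53529144 on the plus strand for Dusp5, chr10:99262981-99263230 on the plus strand for Dusp6 and chr14:105896820-105897069 on the minus strand for Spry2. Capitals mark matches to a motif searched on both strands.
Dusp1: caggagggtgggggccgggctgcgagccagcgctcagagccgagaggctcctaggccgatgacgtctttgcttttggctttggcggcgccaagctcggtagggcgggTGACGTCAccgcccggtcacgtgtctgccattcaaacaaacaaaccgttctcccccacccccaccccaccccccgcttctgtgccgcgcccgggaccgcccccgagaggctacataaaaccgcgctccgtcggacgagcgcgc
Dusp5: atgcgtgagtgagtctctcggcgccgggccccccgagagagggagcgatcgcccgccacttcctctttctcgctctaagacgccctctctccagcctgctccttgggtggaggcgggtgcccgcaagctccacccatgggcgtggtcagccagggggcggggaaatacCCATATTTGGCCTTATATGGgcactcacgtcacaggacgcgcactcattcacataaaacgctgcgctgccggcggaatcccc
Dusp6: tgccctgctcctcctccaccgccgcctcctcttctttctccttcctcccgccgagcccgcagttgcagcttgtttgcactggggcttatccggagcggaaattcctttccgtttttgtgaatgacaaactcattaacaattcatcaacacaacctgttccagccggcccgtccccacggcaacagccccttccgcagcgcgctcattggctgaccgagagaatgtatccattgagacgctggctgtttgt
Spry2: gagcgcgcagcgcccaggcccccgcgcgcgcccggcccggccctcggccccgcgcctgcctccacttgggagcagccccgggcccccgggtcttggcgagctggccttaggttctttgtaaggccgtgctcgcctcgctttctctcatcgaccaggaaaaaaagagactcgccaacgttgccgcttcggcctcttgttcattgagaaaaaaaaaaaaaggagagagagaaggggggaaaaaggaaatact

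RefSeq windows of 300 bases (250 before to 50 after the start) were matched for 9 of the 10 members, Dusp4 excepted. The cyclic AMP response element TGACGTCA, a site of CREB family factors, was found in the Dusp1 window only, at positions -143 to -136 relative to the start, and 1.79% of all 32851 windows hold it. A pair of adjacent serum response elements, CCATATTTGG and CCTTATATGG, was found in the Dusp5 window only, and 1.63% of all windows hold at least 1 such element. The STAT5 type TTCNNNGAA (8.3% of windows), the AP-1 type TGANTCA (7.81%) and the ETS type CCGGAAGT (3.89%) were found in none of the 9 windows. These are matches of letters, and a window without a match says nothing of the factors bound there.

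Dusp6 was the most abundant member in every group, also per length of its exons. DUSP6 is a cytoplasmic phosphatase selective for ERK. Its gene (ENSMUSG00000019960.8, GRCm38 chromosome 10, 99263231 to 99267489) has no exon overlap with another gene. Per kilobase of exon, Dusp6 stood at 138 ± 8.43 CPM (SD, n = 3) in IL-3 mature cells, ahead of Dusp1 at 35.3 ± 5.09, Dusp5 at 30.1 ± 2.38 and Spry2 at 29.0 ± 1.28, which did not differ beyond their spread. Spred2 at 6.93 ± 2.06 and Spred1 at 6.87 ± 0.743 CPM per kilobase came next, and Dusp10 at 0.326 ± 0.167 and Dusp2 at 0.286 ± 0.350 were the lowest of the 8 tested members, with Dusp4 (0.043) and Spry1 (0) lower still. How evenly reads covered a transcript is not given in the sources used here, so this order rests on exon length alone.

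Summed over all 10 members, the level under IL-3 was 234 to 248 CPM in immature and 763 to 765 CPM in mature libraries, and under TSLP it was 362 to 472 CPM in immature and 723 to 985 CPM in mature libraries. The mature libraries lay above the immature libraries within both cytokines, and the TSLP immature libraries lay above the IL-3 immature libraries. The 3 IL-3 mature libraries differed by far less (764 ± 1.18 CPM) than the 3 TSLP mature libraries (859 ± 131 CPM). Dusp6 made up 37.9% ± 3.90 (IL-3) and 36.9% ± 4.10 (TSLP) of the sum in immature cells, and 56.5% ± 3.44 (IL-3) and 51.7% ± 7.21 (TSLP) in mature cells.

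**Figure D1:**
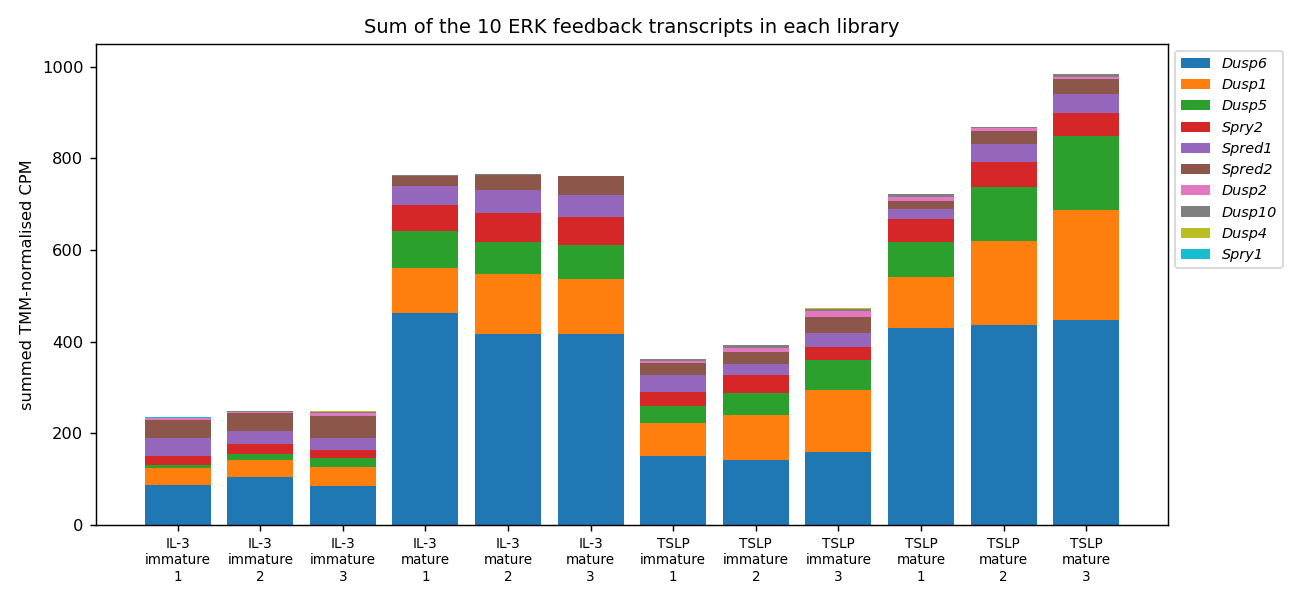
Summed TMM-normalised CPM of the 10 transcripts in each of the 12 libraries, with 1 colour per gene and the replicate number under each bar. Dusp6, at the base, is the largest piece of every bar; the IL-3 mature bars are nearly level at 763 to 765 CPM, and the TSLP mature bars run from 723 to 985 CPM.

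Comparing immature with mature cells of the IL-3 cultures asked how the feedback transcripts differ along basophil maturation. Dusp1, Dusp5, Dusp6 and Spry2 were higher in mature cells, by 3.05 to 5.29-fold, and Dusp2 was higher in immature cells. That is 5 of the 8 members tested (4 higher in mature, 1 higher in immature cells), in a comparison in which 46.2% of all 10861 genes tested were called at an adjusted p under 0.05 (24.1% higher in mature and 22.1% higher in immature cells). The median log2 fold change, immature minus mature, was -1.10 over the 8 members and -0.06 over all genes. In the test of any difference among the 4 groups, 6 of the 8 members were called against 60.8% of all genes, with Spred1 and Spred2 not called.

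Dusp6 stood at 87.3, 104.0 and 85.1 CPM in the IL-3 immature libraries and at 462, 417 and 416 CPM in the IL-3 mature libraries. The groups were far apart, with the highest immature library far below the lowest mature library. Mature cells held 4.64-fold more (95% exact binomial interval 4.29 to 5.02, counting error only), a log2 difference of -2.23 ± 0.16 (SE, edgeR adjusted p = 2.46e-08).

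Dusp5 encodes a nuclear phosphatase that is selective for ERK. It measured 7.28, 13.7 and 19.2 CPM in IL-3 immature and 80.9, 69.2 and 73.5 CPM in IL-3 mature libraries. No library of one group came near the other, and the spread was wider in immature cells (CV 44.6%) than in mature cells (7.90%). The difference was 5.29-fold (4.35 to 6.49) higher in mature cells, with a log2 value of -2.44 ± 0.33 (edgeR adjusted p = 1.75e-05).

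Dusp1, an immediate-early phosphatase of ERK, p38 and JNK, measured 35.4, 36.9 and 41.7 CPM in IL-3 immature and 98.3, 131 and 121 CPM in IL-3 mature libraries. Spry2, the main sprouty transcript here, measured 20.9, 21.4 and 16.9 CPM against 58.1, 63.4 and 60.4 CPM. Neither gene had a library that crossed into the other group. Both differed by a log2 value of -1.62, with SE 0.27 and edgeR adjusted p = 0.000149 for Dusp1, and SE 0.18 and edgeR adjusted p = 2.41e-06 for Spry2. Exons of Dusp1 overlap those of Ergic1 on the opposite strand, and exons of Dusp5 those of AC137853.2, and whether counting used strand is not given in the sources used here.

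Dusp2 encodes a nuclear phosphatase induced in activated immune cells, and it was the member higher in immature cells. It had 8, 13 and 20 counts in the IL-3 immature libraries and 0, 1 and 3 counts in the IL-3 mature libraries. The groups did not overlap, but the mature value rests on 4 counts in all. Immature cells held 9.28-fold more (3.36 to 35.7), a log2 difference of 3.10 ± 0.72 (edgeR adjusted p = 0.0023), which became 4.49 without IL-3 mature library 3.

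The remaining members were not called. Spred1, which restrains RAS activation, measured 38.8, 29.4 and 26.5 CPM in IL-3 immature and 41.0, 50.6 and 48.3 CPM in IL-3 mature libraries. The mature values all lay above the immature values, but the difference of -0.57 ± 0.23 missed the threshold (edgeR adjusted p = 0.0544, called in 3 of 21 alternative analyses). Spred2, its paralogue, measured 37.7 to 48.0 CPM in immature and 22.4 to 41.5 CPM in mature cells, with overlap and a log2 difference of 0.39 ± 0.25. Dusp10, a phosphatase of p38 and JNK, had 1 to 9 counts in every IL-3 library, and its log2 difference went from 0.55 to -0.42 when IL-3 immature library 3 was left out.

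Marker levels of some other cells moved with the same contrast. The 8 monocyte and macrophage markers summed to 23.8 to 52.9 CPM in immature and 258 to 362 CPM in mature libraries under IL-3, and to 97.7 to 129.7 CPM and 373 to 654 CPM in those under TSLP, with all 8 detected in each group and Ly6c2 and Adgre1 making up most of the sum in mature cells. The 8 neutrophil markers summed to 45.4 to 85.7 CPM in IL-3 immature and 284 to 409 CPM in IL-3 mature libraries. Under TSLP their stages overlapped, at 10.9 to 47.3 CPM in immature and 742, 49.9 and 38.8 CPM in mature libraries. The 5 eosinophil markers summed to 10.3 to 17.5 CPM in immature and 63.4 to 87.6 CPM in mature libraries under IL-3, and to 15.6 to 23.5 CPM and 61.8 to 72.9 CPM in those under TSLP. Siglecf and Ccr3 made up most of the sum in mature cells, and the eosinophil peroxidase gene Epx was at 0 in IL-3 mature and at most 0.270 CPM in TSLP mature libraries. Their part in the differences between stages was not tested. In these bulk libraries, fewer cells of a type and less RNA per cell cannot be told apart.

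**Figure D2:**
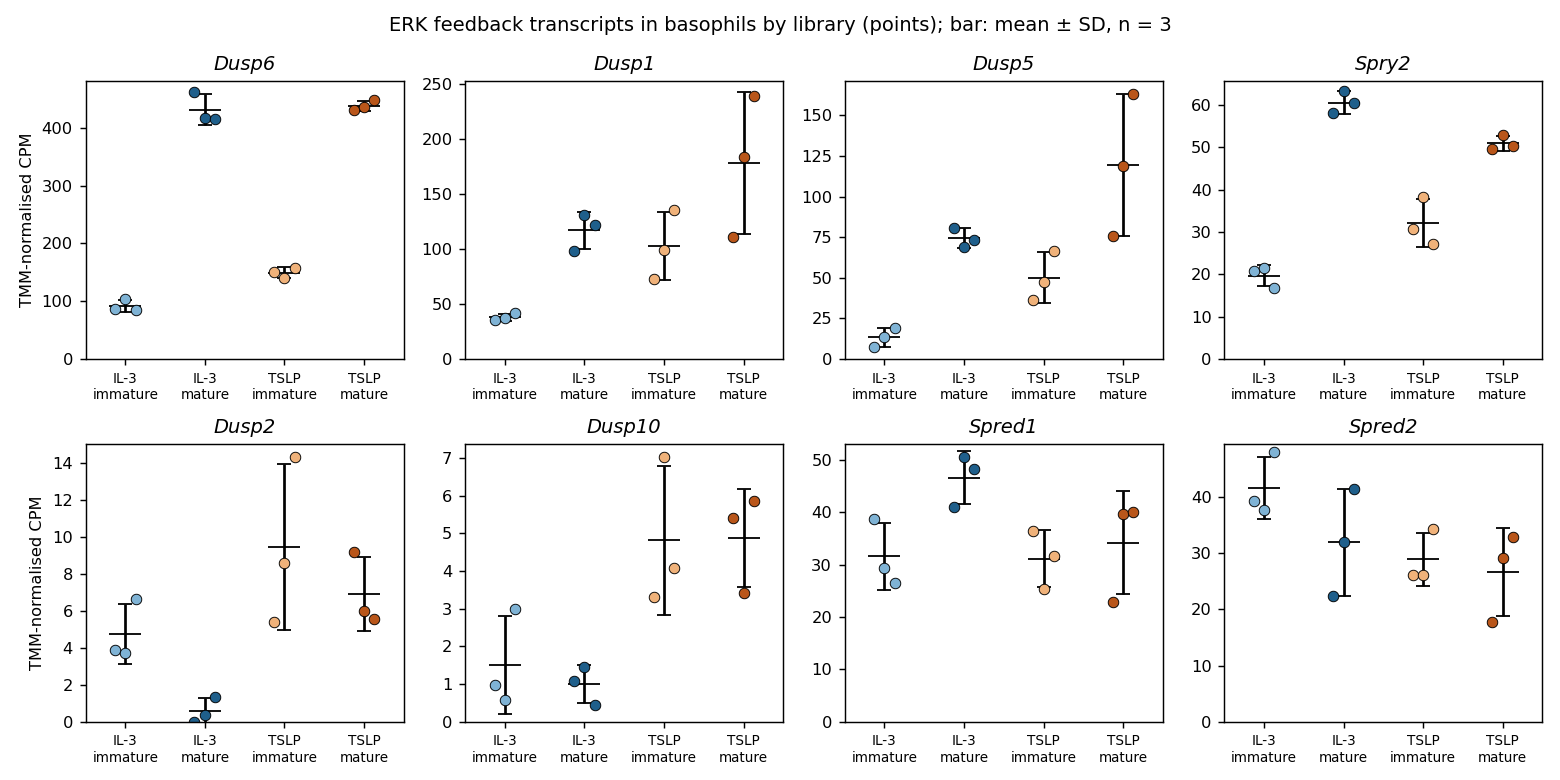
TMM-normalised CPM of the 8 tested members, with 1 point per library, the black bar at the mean and the whiskers at 1 SD (n = 3 per group), on axes that start at 0 and differ between panels. Dusp6, Dusp1, Dusp5 and Spry2 sit higher in mature than in immature cells, Dusp2 is near 0 in IL-3 mature cells, and Dusp10 is low in both IL-3 groups.

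In the TSLP cultures, the same 4 genes, Dusp1, Dusp5, Dusp6 and Spry2, were higher in mature than in immature cells, and no member was higher in immature cells. The called members were 4 of the 8 tested, where 25.1% of all genes were called (12.9% higher in mature, 12.2% higher in immature cells). Over all genes 1328 calls favoured immature and 1403 favoured mature cells, which turned to 1508 and 1207 with the ribosomal RNA rows left out, 1552 and 1135 with Rn45s alone left out, and 2095 and 1361 without TSLP mature library 1. The median log2 fold change was -0.40 over the members and -0.03 over all genes.

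Dusp6 measured 150.0, 141 and 158 CPM in the TSLP immature and 431, 436 and 447 CPM in the TSLP mature libraries. Values within each stage were tight and the stages were well apart, with a log2 difference of -1.55 ± 0.16 (edgeR adjusted p = 3.12e-06). Dusp5 measured 36.1, 47.7 and 66.7 CPM in immature and 75.8, 119 and 163 CPM in mature libraries. Its stages did not overlap either, although the highest immature library came close to the lowest mature library, and the log2 difference was -1.25 ± 0.29 (edgeR adjusted p = 0.00539).

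Spry2 was at 30.7, 38.3 and 27.2 CPM in TSLP immature and at 49.6, 53.1 and 50.5 CPM in TSLP mature libraries. The mature libraries were all higher, by 1.61-fold (1.39 to 1.87) or a log2 difference of -0.67 ± 0.17 (edgeR adjusted p = 0.00927), and the call was lost without TSLP immature library 1 (adjusted p = 0.0794) or library 3 (0.0925). Dusp1 was at 73.1, 99.2 and 135 CPM in immature and at 111, 183 and 239 CPM in mature libraries. Here the groups overlapped, since TSLP immature library 3 was above TSLP mature library 1. The difference of -0.79 ± 0.26 was just past the threshold (edgeR adjusted p = 0.033) and was called in 10 of 21 alternative analyses, with the smallest difference, -0.46 (adjusted p = 0.206), when TSLP mature library 3 was left out.

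Dusp2 differed by 0.44 ± 0.42 between the TSLP stages (edgeR adjusted p = 0.481), with 18, 22 and 42 counts in immature and 34, 21 and 18 counts in mature libraries. Dusp10 (-0.04 ± 0.45), Spred1 (-0.13 ± 0.23) and Spred2 (0.12 ± 0.25) had overlapping stages and were not called. Whether any of these 4 genes is alike in both stages cannot be read from a missed threshold, and the counts of Dusp2 and Dusp10 leave wide intervals.

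The difference between the stage effects of both cytokines was tested as an interaction, in which the IL-3 value of immature minus mature is subtracted from the TSLP value. Spry2 was the 1 member called, of 8 tested, where 4.19% of all genes were called (2.15% with a positive and 2.04% with a negative value). Its log2 stage difference was -1.62 under IL-3 and -0.67 under TSLP, with mature cells higher in both, and the interaction was 0.95 ± 0.25 (edgeR adjusted p = 0.0443). This call was just past the threshold and was met in 7 of 20 alternative analyses, with values from 0.82 to 1.10. Dusp6 (0.68 ± 0.22, edgeR adjusted p = 0.103), Dusp5 (1.19 ± 0.44, 0.150), Dusp1 (0.82 ± 0.37, 0.245) and Dusp2 (-2.66 ± 0.86, 0.0967) missed the threshold, so a different stage effect was not shown for them.

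**Figure D3:**
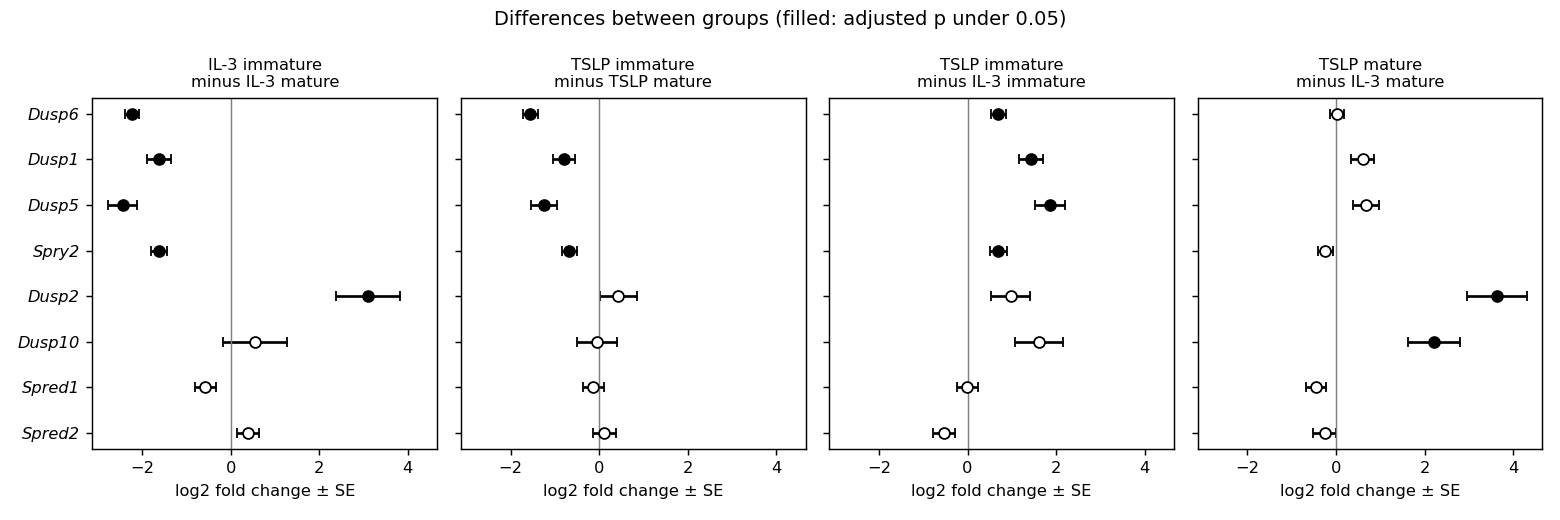
Log2 fold change ± SE of the 8 tested members in the 4 comparisons, with the group named first minus the group named second and filled points where the edgeR adjusted p was under 0.05. The 4 genes Dusp6, Dusp1, Dusp5 and Spry2 lie left of 0 in both stage comparisons and right of 0 for TSLP against IL-3 in immature cells, and Dusp2 and Dusp10 are the filled points for TSLP against IL-3 in mature cells.

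Among immature cells, TSLP against IL-3 showed higher levels of Dusp1, Dusp5, Dusp6 and Spry2 under TSLP. These were 4 of the 8 members tested, where 13.3% of all genes were called (7.38% higher under TSLP and 5.90% higher under IL-3), and no member was higher under IL-3. The median log2 fold change, TSLP minus IL-3, was 0.83 over the members and 0.04 over all genes. The comparisons between cytokines and those between stages share libraries, so the same IL-3 immature values enter both. Markers of other cells moved with this comparison as well. The 7 B cell markers summed to 6.00 to 7.28 CPM in IL-3 immature and to 34.8 to 41.5 CPM in TSLP immature libraries, and the monocyte and macrophage sums given above were also higher under TSLP. Their part in these differences was not tested.

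Dusp5 differed most, from 7.28 to 19.2 CPM under IL-3 to between 36.1 and 66.7 CPM under TSLP, a ratio of 3.52 (2.87 to 4.34) and a log2 difference of 1.86 ± 0.33 (edgeR adjusted p = 0.00188). Dusp1 went from 35.4 to 41.7 CPM under IL-3 to between 73.1 and 135 CPM under TSLP, with a log2 difference of 1.43 ± 0.27 (edgeR adjusted p = 0.00304). In both genes the lowest TSLP library was above the highest IL-3 library.

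Dusp6 and Spry2 were each 1.61-fold higher under TSLP in immature cells, with log2 differences of 0.70 ± 0.16 and 0.70 ± 0.18. Their edgeR adjusted p values were 0.00954 and 0.0211, and neither gene had overlapping groups. The Dusp6 call was lost without TSLP immature library 3 (adjusted p = 0.052). That of Spry2 was lost without any 1 of the IL-3 immature libraries, without TSLP immature library 1 or 2, and with no filter on low counts (adjusted p = 0.0547 to 0.120), and so was called in 15 of 21 alternative analyses. With the 3 ribosomal RNA rows left out of the table, the count stayed at 4 members.

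Dusp10 had 2, 2 and 9 counts in IL-3 immature and 11, 18 and 12 counts in TSLP immature libraries, with every TSLP value in CPM above every IL-3 value. The log2 difference was 1.61 ± 0.55 (edgeR adjusted p = 0.0637) and became 2.60 (adjusted p = 0.0232) without IL-3 immature library 3. Dusp2 differed by 0.97 ± 0.45 (edgeR adjusted p = 0.163), with overlapping groups. Spred2 lay lower under TSLP in each library, at 26.2 to 34.4 CPM against 37.7 to 48.0 CPM, but was not called (-0.53 ± 0.25, edgeR adjusted p = 0.177), and Spred1 differed by -0.002 ± 0.24, which bounds a change to well under 2-fold at this spread.

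Among mature cells, TSLP against IL-3 showed higher Dusp2 and Dusp10 under TSLP. The 2 called genes are 2 of the 8 tested, where 24.3% of all genes were called (12.4% higher under TSLP and 11.9% higher under IL-3). Over all genes the split was 1345 higher and 1289 lower under TSLP, and 1019 higher and 1491 lower with the ribosomal RNA rows left out, which left the 2 member calls in place. The median log2 fold change was 0.31 over the members and 0.09 over all genes.

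Dusp2 measured 0, 0.364 and 1.35 CPM in IL-3 mature and 9.17, 5.96 and 5.54 CPM in TSLP mature libraries. The ratio of 13.5 has a wide interval (5.06 to 51.0), since the IL-3 mature group held 4 counts, and the log2 difference of 3.63 ± 0.68 (edgeR adjusted p = 0.00188) became 4.92 without IL-3 mature library 3. Dusp10 measured 1.07, 1.46 and 0.451 CPM in IL-3 mature and 5.40, 3.405 and 5.85 CPM in TSLP mature libraries. Its groups did not overlap either, at a ratio of 4.73 (2.23 to 11.5) and a log2 difference of 2.21 ± 0.59 (edgeR adjusted p = 0.0139), and the call was lost without IL-3 mature library 3 (adjusted p = 0.0688). Dusp10 had 3, 4 and 1 counts in IL-3 mature and 20, 12 and 19 counts in TSLP mature libraries. With a filter at a minimum count of 10, it entered the test largely through the TSLP libraries, where it is high. Dusp2 likewise entered through the groups other than IL-3 mature, so both calls are of genes kept by the groups where they are higher.

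Dusp6 was at 416 to 462 CPM in IL-3 mature and 431 to 447 CPM in TSLP mature libraries, a log2 difference of 0.02 ± 0.16 (edgeR adjusted p = 0.935). Spry2 was lower in all 3 TSLP mature libraries (49.6 to 53.1 CPM against 58.1 to 63.4 CPM) but was not called, at -0.25 ± 0.17 (edgeR adjusted p = 0.306). Spred1 and Spred2 differed by -0.45 ± 0.23 and -0.26 ± 0.25 and were not called. Dusp1 (0.60 ± 0.26, edgeR adjusted p = 0.0985) and Dusp5 (0.68 ± 0.29, 0.0994) overlapped between the cytokines through TSLP mature library 1, the library with raised neutrophil and B cell markers. Without that library both were called, at 0.77 (adjusted p = 0.0116) and 0.84 (0.0171), and the number of members called was 4. Over the alternative analyses Dusp1 was called in 3 of 21 and Dusp5 in 2 of 21, with differences as small as 0.28 and 0.33. Whether the raised markers bear on the values of that library was not tested.

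Taking the 4 groups in order of mean level, Dusp6 went from IL-3 immature (92.1 ± 10.3 CPM) through TSLP immature (149.7 ± 8.84 CPM) to IL-3 mature (432 ± 26.4 CPM) and TSLP mature (438 ± 8.56 CPM), and the last neighbours did not differ beyond their spread. Dusp1 had the order IL-3 immature (37.99 ± 3.30 CPM), TSLP immature (102 ± 31.2 CPM), IL-3 mature (117 ± 16.9 CPM) and TSLP mature (178 ± 64.4 CPM), in which the ranges of the 3 higher groups overlapped. Dusp5 followed the same order at 13.4 ± 5.97, 50.2 ± 15.5, 74.5 ± 5.89 and 119 ± 43.8 CPM, with overlap between the mature groups only. For Spry2 the order was IL-3 immature, TSLP immature, TSLP mature and IL-3 mature, at 19.7 ± 2.47, 32.1 ± 5.66, 51.1 ± 1.78 and 60.6 ± 2.67 CPM, and no neighbouring groups overlapped.

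The members differed in how evenly the replicates agreed. In the TSLP groups, Dusp1 had a CV of 30.4% in immature and 36.3% in mature cells, and Dusp5 of 30.9% and 36.7%, whereas Dusp6 had 5.90% and 1.95% and Spry2 17.6% and 3.49%. Among the libraries of each TSLP group, Dusp1 and Dusp5 kept nearly the same proportion, which differed between the TSLP stages and was less steady under IL-3. Their ratio of counts was 2.02, 2.08 and 2.03 in the TSLP immature libraries and 1.46, 1.54 and 1.46 in the TSLP mature libraries, against 2.17 to 4.87 in immature and 1.22 to 1.89 in mature libraries of the IL-3 cultures. The ratio of Dusp6 to Dusp1 ranged more widely, between 1.17 and 2.05 in immature and between 1.87 and 3.89 in mature TSLP libraries.

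Fos, an immediate-early transcription factor gene, had its lowest and highest values in the same TSLP libraries as Dusp1 and Dusp5. It measured 202, 302 and 442 CPM in the TSLP immature and 229, 307 and 486 CPM in the TSLP mature libraries, with library 1 lowest and library 3 highest in each group. The ribosomal RNA share was also lowest in TSLP mature library 1 (17.3%) and highest in library 3 (34.7%), and in the TSLP immature libraries it was 35.3%, 35.0% and 40.1%. The part of these in the spread of Dusp1 and Dusp5 was not tested, and Fos and these libraries were chosen after their values were seen.

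**Figure D4:**
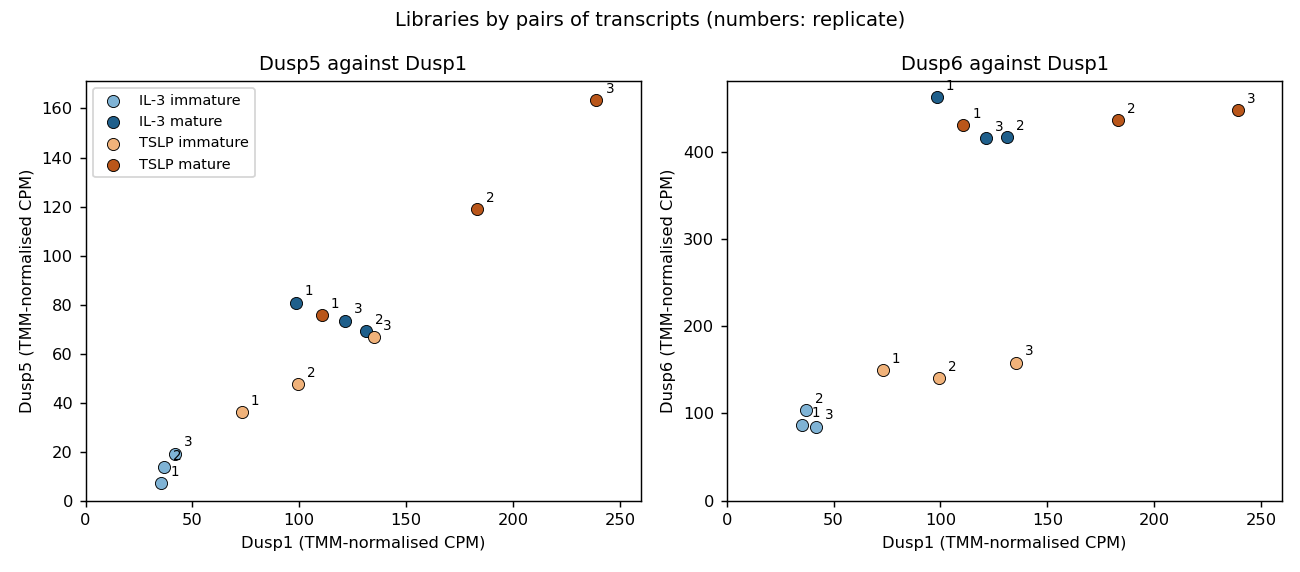
TMM-normalised CPM of Dusp5 (left) and Dusp6 (right) against Dusp1 in the 12 libraries, coloured by group and numbered by replicate. On the left the libraries of each TSLP group spread along a line, whereas on the right Dusp6 stays at 431 to 447 CPM in TSLP mature cells while Dusp1 runs from 111 to 239 CPM.

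Dusp4 and Spry1 were at the limit of detection. Dusp4, an ERK-induced nuclear phosphatase, had 3 counts in immature and 1 in mature cells under IL-3, and 2 and 1 under TSLP. Spry1 had 1 count in each of the other groups and none in IL-3 mature cells, where a count of 0 allows a level of up to 0.386 CPM. No difference could be detected at this depth for either gene.

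Other genes of the pathway were described by lists. Of 7 further phosphatases of the same kind, sprouty and SPRED genes, 3 were tested: Dusp16, a phosphatase of JNK and p38, was higher in mature cells under IL-3 (7.81 against 22.5 CPM, log2 -1.47 ± 0.33, edgeR adjusted p = 0.00157), Dusp7 in mature cells under TSLP (6.41 against 12.03 CPM, -0.90 ± 0.29, 0.0341), and Spred3 was lower under TSLP among mature cells (1.54 against 5.12 CPM, -1.70 ± 0.54, 0.0308). Each of these comparisons thus called 1 of 3 tested genes, where 46.2%, 25.1% and 24.3% of all genes were called. Dusp7 differed by -0.80 ± 0.34 between the IL-3 stages (edgeR adjusted p = 0.0617) and Dusp16 by -0.51 ± 0.30 between the TSLP stages (0.238). The interaction was called for neither, so a stage effect particular to 1 cytokine was not shown. Spry4 had 18 counts in all and Spry3 none. Of 11 atypical DUSP genes, 5 were tested, and 2 were higher in immature and 2 in mature cells under IL-3, where 46.2% of all genes were called. Dusp23 was higher in immature cells under both cytokines, with log2 differences of 1.37 (edgeR adjusted p = 0.00432) and 1.40 (0.0104).

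Of the genes of the RAS-RAF-MEK-ERK cascade, 9 of 18 tested were higher in mature and 1 in immature cells under IL-3, where 24.1% and 22.1% of all genes were called in these directions. Under TSLP 4 of 18 were higher in mature and none in immature cells, where 12.9% and 12.2% of all genes were. The median log2 difference of the list was -0.61 under IL-3 and -0.36 under TSLP, against -0.06 and -0.03 over all genes. Rasgrp4, a RAS activator of mast cells and basophils, was at 2.13 against 22.0 CPM in IL-3 cells (log2 -3.43 ± 0.39, edgeR adjusted p = 2.56e-06). The adaptor Gab2 was at 112 against 281 CPM (-1.33 ± 0.19, 3.89e-05), the scaffold Ksr1 at 10.4 against 25.1 CPM (-1.31 ± 0.27, 0.00101), and Mapk3, which encodes ERK1, at 54.2 against 97.0 CPM (-0.84 ± 0.20, 0.00262). Between cytokines, 1 of 18 genes was called in immature cells (Ksr1, 0.99 higher under TSLP), where 13.3% of all genes were. In mature cells 2 of 18 were called, 1 in each direction, where 24.3% of all genes were.

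Of the p38 and JNK kinases and their activators, 4 of 7 tested were higher in IL-3 mature cells (Mapk12, Mapk14, Map2k3 and Map2k4) and 2 of 7 in TSLP mature cells (Mapk12 and Mapk14), with none higher in immature cells. Among all genes 24.1% were higher in mature cells under IL-3 and 12.9% under TSLP. The list medians were -0.75 and -0.19. Mapk14, which encodes p38α, was at 111 against 211 CPM under IL-3 (-0.93 ± 0.19, edgeR adjusted p = 0.000816) and at 122 against 237 CPM under TSLP (-0.95 ± 0.19, 0.00147).

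Next came transcripts that ERK is known to induce. In IL-3 cells 7 of 10 tested were higher in mature and 1 in immature cells, and in TSLP cells 3 were higher in mature and none in immature cells. In either direction, 46.2% of all genes were called under IL-3 and 25.1% under TSLP, and the list medians were -1.02 and -0.49. Ier3, an early gene tied to survival, was at 562 against 2537 CPM under IL-3 (-2.17 ± 0.22, edgeR adjusted p = 8.31e-07) and at 490 against 1076 CPM under TSLP (-1.14 ± 0.22, 0.00108). Myc was the gene higher in IL-3 immature cells (13.99 against 6.46 CPM, 1.13 ± 0.32, 0.00778). Against IL-3, 5 of 10 were higher under TSLP in immature cells, and 3 were higher and 1 was lower in mature cells, where 13.3% and 24.3% of all genes were called. Ier2 was higher under TSLP in both stages, by 1.20 ± 0.21 in immature (edgeR adjusted p = 0.00168) and 1.39 ± 0.21 in mature cells (0.000509), and so was Fos, by 1.71 ± 0.30 (0.00163) and 0.92 ± 0.29 (0.0314). Ier3 was the gene lower under TSLP in mature cells (-1.24 ± 0.22, edgeR adjusted p = 0.00123), and it was not called in immature cells (-0.20 ± 0.21).

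Among other brakes on the pathway, 6 of 15 tested were higher in mature and 3 in immature IL-3 cells, and 2 of 15 were higher in mature and 1 in immature TSLP cells. Over all genes 46.2% were called in the IL-3 and 25.1% in the TSLP cultures. The list medians were -0.50 and -0.24. Rasa3, a GTPase-activating protein gene, was at 62.8 against 197 CPM (-1.65 ± 0.19, edgeR adjusted p = 3.91e-06). The opposite direction was seen for Ptpn7, a phosphatase of ERK and p38 in blood cells, at 360.1 CPM in IL-3 immature and 207 CPM in IL-3 mature cells (0.80 ± 0.20, edgeR adjusted p = 0.00356). Ptpn7 was also lower under TSLP, by -1.04 in immature (0.00308) and -1.14 in mature cells (0.0013), in contrast to the direction of the called members.

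**Figure D5:**
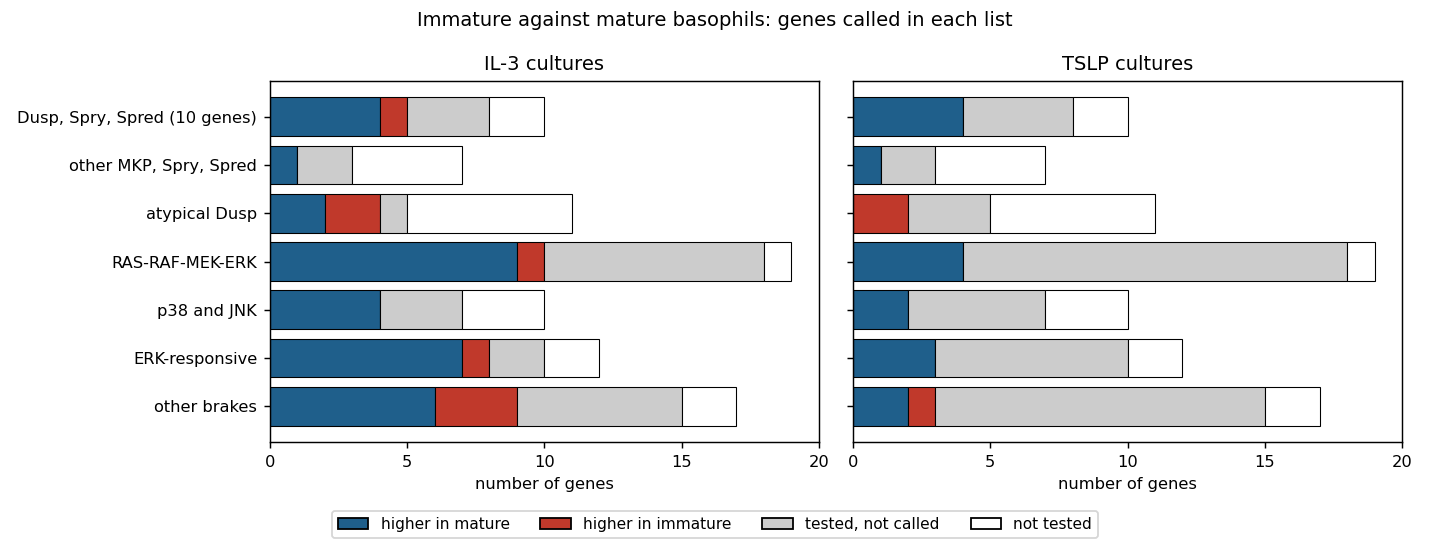
Number of genes called in the immature against mature comparison, for the 10 members and 6 related lists, in IL-3 (left) and TSLP cultures (right). Blue stands for higher in mature, red for higher in immature, grey for tested but not called and white for not tested; most called genes of the cascade, p38 and JNK and ERK-responsive lists are blue.

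For each member called among the 4 groups, the genes with the most similar pattern were sought among the 4880 called genes whose mean reached 10 CPM, by the root mean square difference of the centred group means (log2 CPM, over 4 groups). For Spry2 they were Ptprc, which encodes CD45 (0.02), Nuak2 (0.02) and Hgsnat (0.03). For Dusp6 they were Vopp1 (0.07), H2-D1 (0.07) and Ctsd (0.08), and for Dusp1 Arhgef12 (0.05), Nfkbiz (0.07) and Pear1 (0.08). For Dusp5 they were Gm8909, Il10ra and Gm29721 (0.10 to 0.11), and for Dusp10 Slc39a8, Rhob and Smpdl3a (0.10 to 0.18). The pattern of Dusp2, low in IL-3 mature cells alone, was less closely met, by Mcf2l, Kat2a and Fasn (0.28 to 0.33). Among pairs of members, the smallest distances were those of Spred1 and Spred2 (0.36), Dusp1 and Spry2 (0.37), Dusp6 and Spry2 (0.39) and Dusp1 and Dusp5 (0.39). Spred1 and Spred2 were not called among the 4 groups, and their log2 differences between the IL-3 stages had opposite signs (-0.57 and 0.39). The small distance of that pair therefore does not show a shared pattern.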

How the data were processed

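Polyadenylated RNA of 12 sorted BMBA samples was sequenced on an Ion Proton. The authors deposited raw counts per gene in 1 table. Per the study's methods, Cutadapt trimmed the reads and Bowtie2 aligned them to GRCm38 reference RNA, while the submitters' processing notes name GRCm39 and mm10. How strand, multiple matches and molecular identifiers were handled is not given in the sources used here. 1 unnamed row, equal to the sum of the others (50% of each column), was left out.

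Counts were fitted in edgeR 4.0.16 (R 4.3.3) by quasi-likelihood and compared by F tests: TMM scaling, filterByExpr (minimum count 10, minimum total 15), 1 mean per group over all 12 libraries, and Benjamini-Hochberg adjustment over 10861 genes (threshold 0.05). These held 99.49% to 99.66% of the counts, and the common biological coefficient of variation was 20.4%. Samples were grouped by their labels. Single-gene ratios carry 95% exact binomial intervals, and intervals and floors (3 counts per group) cover counting error only. Related genes are named by up to 4 called genes with the smallest p per list, and like genes as the 3 nearest per called member. Alternatives were DESeq2 1.42.0 and its size factors, other scalings and filters, a replicate block, the compared groups alone and each library left out. Scripts were tested on simulated data. Members and lists were chosen with earlier results of these data known. Loci are from GENCODE M21 and promoters from RefSeq GRCm38.p6.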

Additional observations from a re-analysis of the deposited data

Results flagged for a closer look

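The stage difference of Spry2 was not the same under both cytokines in the test of that difference: the interaction was 0.945723 on the log2 scale (0.95 ± 0.25; edgeR adjusted p = 0.0443). Higher Spry2 in mature cells was seen in 3 of 3 libraries in each cytokine, with an immature minus mature log2 difference of -1.62 under IL-3 and -0.67 under TSLP. Over the alternative analyses the adjusted p ran from 0.0293 to 0.133.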

How the results depend on the processing

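No member reversed a called direction, and of 819 member values under the alternatives 771 kept their side of the threshold, 14 passed it only there and 34 lost it. Leaving out 1 library at a time gave 2 to 4 members called between the TSLP stages, where the low value came without TSLP immature library 1. It gave 1 to 4 for TSLP against IL-3 in mature cells, with 1 without IL-3 mature library 3 and 4 without TSLP mature library 1, and 0 to 1 for the interaction, where Spry2 was retained only without TSLP immature library 3 or TSLP mature library 1. The mature cytokine count was 4 with no filter and 0 with a filter of 10 CPM in 3 libraries, which removes Dusp2 and Dusp10. The interaction count was 0 with DESeq2 size factors and with TMM on uncalled genes, 2 with the DESeq2 test (Spry2 and Dusp6) and 2 with no filter (Dusp2 and Dusp5). Where not stated, the cause was not tested. Pairs of libraries with the same number had r from -0.08 to 0.39 in their deviations (median 0.079, over 0.1 in 7 of 18), against a median of -0.046 and 2 of 36 for pairs with different numbers, and 7 of 12 libraries were closest to one of their own number. Pairs with different numbers reached 0.27, and not every pair with the same number was over 0.1. Whether some libraries share a source is not given by the labels and was not tested. The replicate block is therefore given only here: it called 2 members in the interaction (Spry2 and Dusp5, adjusted p = 0.033) and Dusp1 for TSLP against IL-3 in mature cells (adjusted p = 0.0375). Over all genes, the number called fell from 2731 to 1774 between the TSLP stages without TSLP immature library 1, and from 2634 to 1714 in the mature cytokine comparison with only the groups compared and to 1658 without IL-3 mature library 2. It ran from 588 to 2243 against 1443 in the immature cytokine comparison and from 240 to 723 against 455 in the interaction when single libraries were left out. A filter of 10 CPM moved the median of all genes by 0.11 in both stage comparisons. Leaving out the ribosomal RNA rows, chosen after seeing the data, changed no member count. Dusp4 and Spry1 are limited by depth.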
